A study of Mus musculus with 4 samples.

Results

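The genes described here are the vascular endothelial growth factor (VEGF) ligands Vegfa, Vegfb, Vegfc and Pgf, the VEGF receptor Flt1, the neuropilin co-receptors Nrp1 and Nrp2, and the vasodilator peptide gene Adm. They were chosen by name: every probe set tied to 1 of these 8 symbols in the array annotation was taken, which gave 13 probe sets out of 22690 and 8 of the 12393 genes on the array. The study measured RNA from mouse mammary macrophages on Affymetrix arrays, with 1 array for each of 4 groups. The first group was tumor macrophages with both copies of Ets2 deleted (2 copies), taken at an early stage of mammary tumors that arise from polyoma middle T (PyMT) expression. The second was Ets2-expressing tumor macrophages from the same tumor model, which are called wild type in the title but carry 1 copy of Ets2 in the source label. The third was Ets2-deficient macrophages (2 copies deleted) from remodeling mammary glands without tumor, and the fourth was wild-type macrophages from such glands. All 4 groups came from mice whose macrophages expressed the fluorescent protein YFP, by which the cells were sorted. The labels used here name neither the promoter that drives YFP nor the means of deletion, and give neither the age of the mice nor the number of animals behind each RNA sample.

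VEGF ligands drive the growth of blood and lymphatic vessels. Vegfa binds the receptor tyrosine kinases Flt1 and Kdr, whereas Vegfb and Pgf bind Flt1, and Vegfc binds Flt4, the receptor of lymphatic endothelium. Flt1 binds Vegfa tightly but signals weakly, and it is also present on monocytes and macrophages. Neuropilins hold VEGF ligands and class 3 semaphorins at the cell surface beside their signaling receptors. Adrenomedullin, the peptide made from Adm, widens vessels through the receptor Calcrl, which forms an adrenomedullin receptor together with Ramp2 or Ramp3. Vegfa and Adm are both induced when oxygen is low.

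With 1 array per group there was no replicate check, and no test or p-value is given. "Higher" and "lower" mean higher or lower on these arrays. A gene was counted in a comparison only if its brighter value reached the median of all probe sets on that array, and was called where it reached 2-fold, which is 1 on the log2 scale. The array medians were 6.30 (tumor, Ets2-deficient), 6.22 (tumor, Ets2-expressing), 5.98 (remodeling, Ets2-deficient) and 6.17 (remodeling, Ets2-expressing). Error could be judged only from bright probe sets of the same gene, whose pooled standard deviation was 0.34 (Ets2 comparison in tumor), 0.28 (Ets2 comparison in remodeling), 0.32 (tumor minus remodeling, Ets2-deficient) and 0.41 (tumor minus remodeling, Ets2-expressing) on the log2 scale. This spread covers neither animals nor sorts. The Ets2 probe set itself gave 12.67 and 12.77 in tumor macrophages (Ets2-deficient and Ets2-expressing) and 12.97 and 13.24 in remodeling macrophages (Ets2-deficient and Ets2-expressing), so the arrays labelled Ets2-deficient differed from their partners by -0.09 and -0.28 log2. "Ets2-deficient" and "Ets2-expressing" are therefore names taken from the labels in every comparison. The Ets2-expressing tumor array carries 1 copy of Ets2 by its source label, whereas the Ets2-expressing remodeling array is labelled wild type. Between these arrays tissue and Ets2 copy number cannot be told apart. The labels do not say which exons were deleted, and a probe set outside them checks nothing. Macrophage markers such as Csf1r and C1qa were bright on every array, and none of 12 differed by 2-fold in any comparison, with Itgam alone below the median of all 4 arrays. The 3' minus 5' signal of the Actb control was 3.54 and 3.30 on the tumor arrays (Ets2-deficient and Ets2-expressing) against 2.96 and 2.72 on the remodeling arrays (Ets2-deficient and Ets2-expressing), so it moved with tissue. Its part in the differences between tissues was not tested.

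The starts of Vegfa, Flt1 and Adm are shown because these 3 members passed 2-fold in at least 1 comparison. Each line gives the 250 bases before the RefSeq transcription start (GRCm38.p6), 5' to 3' on the strand of the gene: Vegfa at chr17:46032378-46032627 on the minus strand, Flt1 at chr5:147726012-147726261 on the minus strand, and Adm at chr7:110627407-110627656 on the plus strand. Capitals mark the letters GGAA, the core of ETS factor sites, and ACGTG or GCGTG, the core of hypoxia response elements, on either strand.
Vegfa: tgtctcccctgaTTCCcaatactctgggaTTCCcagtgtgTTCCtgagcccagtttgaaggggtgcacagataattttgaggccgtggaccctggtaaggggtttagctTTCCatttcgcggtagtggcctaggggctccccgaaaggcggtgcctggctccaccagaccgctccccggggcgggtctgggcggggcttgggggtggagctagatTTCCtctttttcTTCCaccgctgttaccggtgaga
Flt1: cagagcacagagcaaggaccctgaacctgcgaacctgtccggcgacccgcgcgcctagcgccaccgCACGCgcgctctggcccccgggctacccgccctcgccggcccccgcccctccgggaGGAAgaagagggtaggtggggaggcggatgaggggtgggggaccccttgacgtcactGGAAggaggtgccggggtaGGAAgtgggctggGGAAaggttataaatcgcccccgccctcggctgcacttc
Adm: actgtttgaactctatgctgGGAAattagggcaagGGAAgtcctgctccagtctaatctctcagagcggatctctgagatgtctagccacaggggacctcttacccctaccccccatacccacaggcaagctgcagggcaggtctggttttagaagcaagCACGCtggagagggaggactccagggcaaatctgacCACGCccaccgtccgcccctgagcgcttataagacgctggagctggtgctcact

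The Adm stretch held GCGTG in 2 places, both on the minus strand, at 90 to 86 and 54 to 50 bases before the start, and GGAA in 2 places, at 230 to 227 and 215 to 212. The Flt1 stretch held 1 GCGTG and 4 GGAA. The Vegfa stretch held 6 GGAA, all on the minus strand, and neither hypoxia core, while a second RefSeq start of Vegfa held 1 ACGTG, 1 GCGTG and 2 GGAA. These letters are common: GGAA stood in 93.4% of the same 250-base stretches of 27025 mouse genes and ACGTG or GCGTG in 38.6%. Among the 8 members 7 held GGAA and 7 held ACGTG or GCGTG, with every RefSeq start of a member counted. Vegfa held a hypoxia core only at its second start. The shares over all genes used 1 start per gene, so that count and the 38.6% are not like for like. The AP-1 letters TGANTCA, found in 6.87% of all stretches, stood in none of the members. A match is a string of letters and no measured binding.

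Vegfa, the main angiogenic ligand, was lower in tumor than in remodeling macrophages with either Ets2 label. Its bright probe set (1420909_at) gave 7.49 and 7.24 log2 in tumor macrophages (Ets2-deficient and Ets2-expressing), against 8.37 and 8.997 in remodeling macrophages (Ets2-deficient and Ets2-expressing). Both tumor arrays lay below both remodeling arrays, but the share of all genes split this way was not counted, so nothing is read from it. Between Ets2-expressing arrays the tumor value was 3.38-fold lower than the remodeling value (log2 difference -1.76), and only 1.48% of bright genes were as low or lower in that comparison. Between Ets2-deficient arrays it was 1.84-fold lower (-0.88), short of the threshold, with 2.51% of bright genes as low or lower. Those 2 differences were 4.28 and 2.76 times the pooled spread between probe sets, with the Ets2-expressing one first. Vegfa has another probe set, which lay below the median of all 4 arrays at 4.799 and 4.897 in tumor macrophages (Ets2-deficient and Ets2-expressing) and 4.86 and 4.94 in remodeling macrophages (Ets2-deficient and Ets2-expressing). That probe set hardly moved, and with the mean of both the differences were -0.47 between Ets2-deficient and -0.90 between Ets2-expressing arrays, neither 2-fold. In sorted bulk RNA, fewer cells of a type and less RNA per cell cannot be told apart.

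The Vegfa differences between Ets2 labels were smaller and ran in opposite ways in tumor and remodeling macrophages. In remodeling macrophages the array labelled Ets2-deficient was 1.54-fold lower than the Ets2-expressing one (log2 difference -0.62), beyond the pooled spread between probe sets but with 9.01% of bright genes as low or lower. In tumor macrophages the array labelled Ets2-deficient was 1.19-fold higher (0.25), within that spread. Neither was called. The order of Vegfa levels was therefore remodeling Ets2-expressing, remodeling Ets2-deficient and then both tumor arrays, which did not differ beyond the spread.

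Vegfb, which is known for roles in muscle and fat vessels, was level on all 4 arrays. It gave 7.78 and 7.68 log2 in tumor macrophages (Ets2-deficient and Ets2-expressing) and 7.70 and 7.96 in remodeling macrophages (Ets2-deficient and Ets2-expressing). No neighbours in this order differed beyond the spread between probe sets. Vegfc, the lymphatic growth factor, lay below the median of every array, between 4.57 and 4.79. Pgf, the placental growth factor gene, did so too, at 4.47 and 4.12 in tumor macrophages (Ets2-deficient and Ets2-expressing) and 4.36 and 4.40 in remodeling macrophages (Ets2-deficient and Ets2-expressing). For these 2 genes the signal was too low to count in any comparison, which does not show that the RNA was absent.

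Flt1, the VEGF receptor among the members, had its highest level on the Ets2-expressing remodeling array. Its bright probe set (1451756_at) gave 7.60 and 7.27 log2 in tumor macrophages (Ets2-deficient and Ets2-expressing), against 7.74 and 8.54 in remodeling macrophages (Ets2-deficient and Ets2-expressing). The other 3 arrays lay close together, and neighbours among them did not differ beyond the spread between probe sets. The Ets2-expressing tumor array was 2.42-fold lower than the Ets2-expressing remodeling array (log2 difference -1.27), which was called, with 3.30% of bright genes as low or lower. Between Ets2-deficient arrays the tumor value was 1.11-fold lower (-0.15). In remodeling macrophages the array labelled Ets2-deficient was 1.74-fold lower than the Ets2-expressing array (-0.80), and in tumor macrophages 1.26-fold higher (0.33), neither called. Flt1 has 2 other probe sets, both below the median of all 4 arrays, so the call rests on 1 of 3. With the mean of all 3 the Ets2-expressing tissue difference was -0.50, and the tumor Ets2 difference turned to -0.02.

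Nrp1, which encodes the neuropilin that binds Vegfa, was bright in all 3 of its probe sets on all 4 arrays and showed little difference. The brightest (1448944_at) gave 12.43 and 12.49 log2 in tumor macrophages (Ets2-deficient and Ets2-expressing) and 12.66 and 12.54 in remodeling macrophages (Ets2-deficient and Ets2-expressing). No neighbours in this order differed beyond the spread. The other Nrp1 probe sets disagreed over the Ets2 comparison in tumor, at -0.37 and 0.51 around a value of -0.06 for the brightest, and in remodeling they gave 0.14 and 0.57 beside 0.11.

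Nrp2, the neuropilin that binds Vegfc, was lower in tumor than in remodeling macrophages by similar amounts with either Ets2 label. Its probe set (1426528_at) gave 9.80 and 10.09 log2 in tumor macrophages (Ets2-deficient and Ets2-expressing), against 10.42 and 10.73 in remodeling macrophages (Ets2-deficient and Ets2-expressing). The tumor and remodeling values did not overlap, but the share of all genes split this way was not counted, so nothing is read from it. The tumor value was 1.54-fold lower between Ets2-deficient arrays (log2 difference -0.63) and 1.56-fold lower between Ets2-expressing arrays (-0.64), both beyond the spread between probe sets and both short of 2-fold. These were common sizes, since 6.66% and 11.3% of bright genes were as low or lower in those comparisons. The array labelled Ets2-deficient was lower in both tissues, with log2 differences of -0.29 in tumor and -0.31 in remodeling macrophages, which is 1.22-fold and 1.24-fold.

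Adm varied most of the 8 genes and was the 1 member called in an Ets2 comparison. Its single probe set (1416077_at) gave 5.16 and 5.24 log2 in tumor macrophages (Ets2-deficient and Ets2-expressing), 3.78 in Ets2-deficient remodeling macrophages and 6.63 in Ets2-expressing remodeling macrophages. Only the Ets2-expressing remodeling array lay above its median, and the Ets2-deficient remodeling array lay below its 25th percentile of 4.29, which is taken here as background. The tumor arrays were level with each other and lay between the remodeling arrays.

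In remodeling macrophages Adm was 7.18-fold lower with the Ets2-deficient label than with the Ets2-expressing one (log2 difference -2.84), a size that is not exact because the dimmer value was at background. Of bright genes 0.606% were as low or lower. Adm was bright here only through the Ets2-expressing array, where it was high, so nothing is read from that share. Between these 2 arrays 13 of 15 fibroblast and 5 of 8 mast cell markers were also lower by 2-fold, beside 5.17% of all bright genes. The part of such cells in the Adm difference was not tested. In tumor macrophages the Ets2-deficient and Ets2-expressing values differed by -0.08, and both lay below their array medians. Between tissues Adm ran in opposite ways by Ets2 label. The tumor value was 2.61-fold lower than the remodeling value between Ets2-expressing arrays (-1.38), which was called, and 2.61-fold higher between Ets2-deficient arrays (1.38), where the brighter value, 5.16, was too dim to count. With 32 added to all unlogged values, which damps differences near background, the Ets2-expressing tissue difference was -0.90 and no longer called, and the remodeling Ets2 difference was -1.51.

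**Figure D1:**
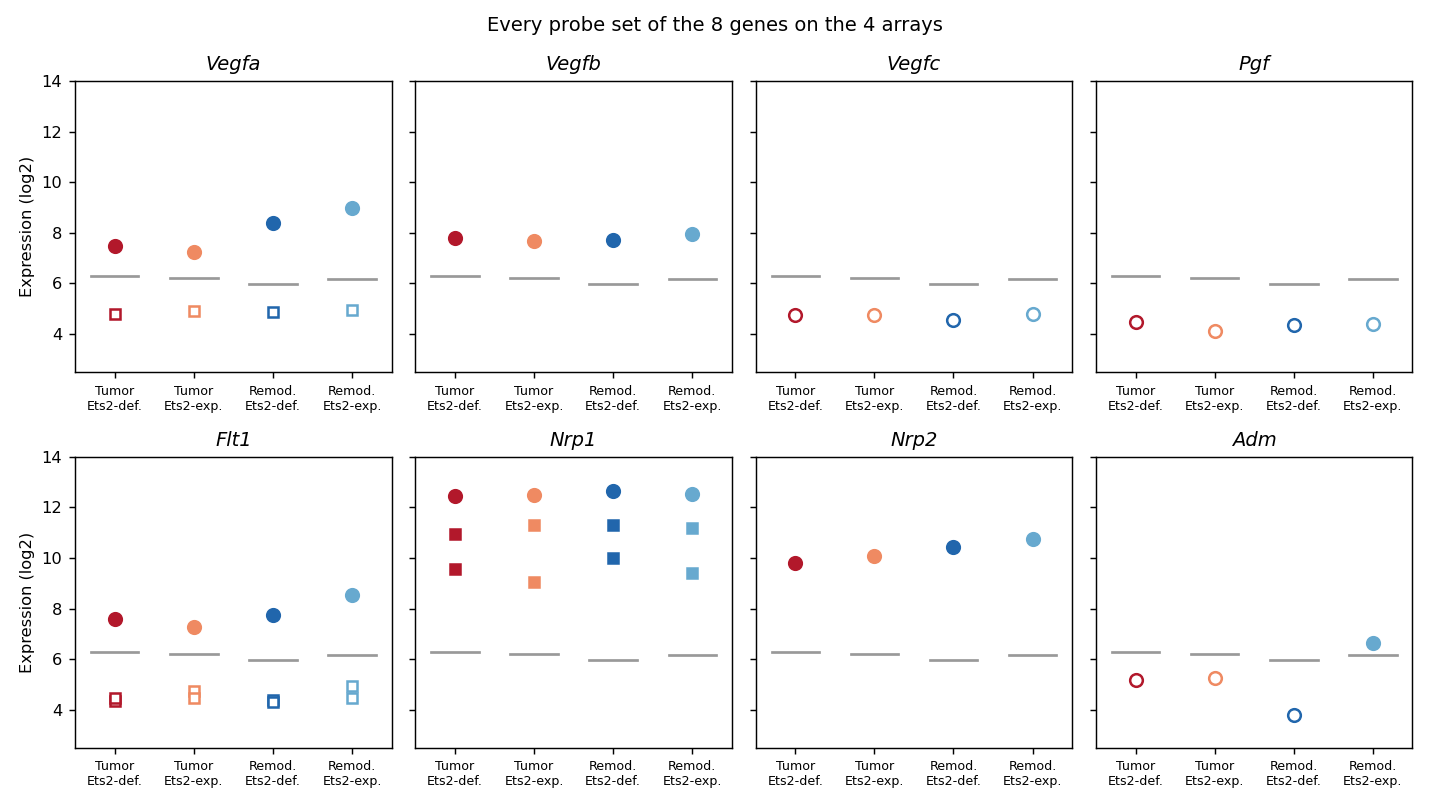
Expression (log2, vertical axis) of every probe set of the 8 genes on the 4 arrays (horizontal axis). Circles are the probe set that stands for the gene and squares its other probe sets, filled at or above the array median (grey lines) and open below it. Vegfa and Flt1 reach their highest values, 8.997 and 8.54, on the Ets2-expressing remodeling array, and Adm is filled on that array alone.

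By count, no member was called in the Ets2 comparison in tumor macrophages, where 2.99% of 7225 bright genes passed 2-fold either way (2.23% higher and 0.761% lower). In the Ets2 comparison in remodeling macrophages 1 of the 6 bright members (Adm) was lower by 2-fold and none was higher, beside 5.17% of 7095 bright genes lower and 1.31% higher (6.48% either way). Of those 6 members 5 lay below 0, with a median of -0.47, while 42.9% of all bright genes lay below 0 and their median was 0.05. Adm was bright only through the Ets2-expressing array, where it was high, so it could count only as lower. Nothing is read from its place in this count and median.

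In tumor minus remodeling between Ets2-expressing arrays 3 of 6 bright members (Vegfa, Flt1 and Adm) were lower by 2-fold and none was higher, beside 5.2% of 7253 bright genes lower and 6.18% higher (11.4% either way). All 6 bright members lay below 0, with a median of -0.96, while 42.9% of all bright genes lay below 0 and had a median of 0.09. Between Ets2-deficient arrays none of 5 bright members passed 2-fold, beside 1.61% of 7203 bright genes lower and 7.61% higher (9.22% either way), and their median was -0.22 against 0.06. The Ets2-expressing remodeling array enters both comparisons in which members were called, and Vegfa, Flt1 and Adm were each highest on it. Adm was bright on that array alone, so it could count only as lower in either comparison. Nothing is read from its place in these counts and medians. Tissue and Ets2 copy number also differ together between the Ets2-expressing arrays.

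**Figure D2:**
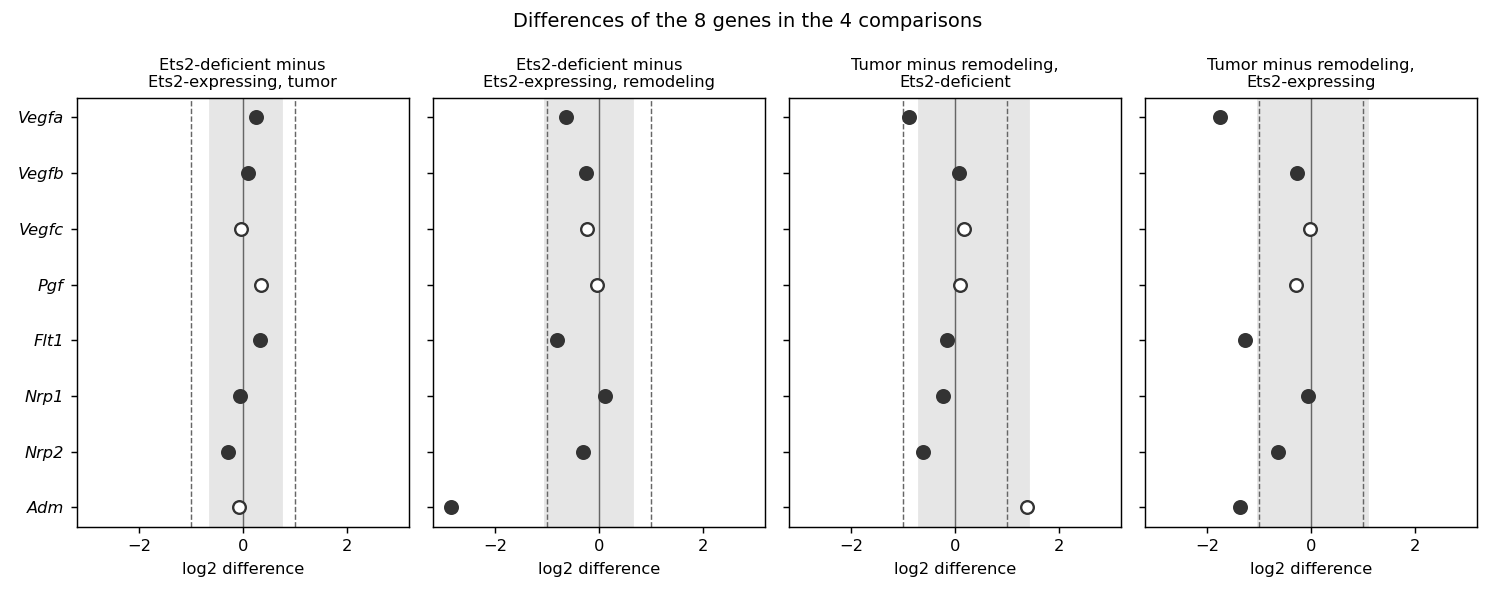
Log2 differences (horizontal axis) of the 8 genes (vertical axis) in the 4 comparisons, filled where the gene was bright enough to count and open where it was not. The grey band spans the 5th to 95th percentile of all bright genes and dashed lines mark 2-fold. Adm at -2.84 stands outside the band in the remodeling Ets2 comparison, and Vegfa at -1.76, Flt1 at -1.27 and Adm at -1.38 stand outside it in tumor minus remodeling between Ets2-expressing arrays. Vegfa at -0.88 also lies outside it between Ets2-deficient arrays.

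The centring of the arrays bears on these counts. In the Ets2 comparison in tumor 74.5% of the genes past 2-fold were higher, and 58.1% after each array was centred on its median. In the Ets2 comparison in remodeling they made up 20.2%, and 39.5% after centring. In tumor minus remodeling between Ets2-deficient arrays they made up 82.5%, and 50.8% after centring. With centring on the hybridization controls in its place the shares were 82.7% in the tumor Ets2 comparison, 39.8% in the remodeling Ets2 comparison and 61.3% in tumor minus remodeling between Ets2-deficient arrays. With quantile normalization they were 59.6% in the tumor Ets2 comparison, 24.9% in the remodeling Ets2 comparison and 71.5% in tumor minus remodeling between Ets2-deficient arrays. Median centring shifted every gene by the same amount in a comparison, so the median of all genes became 0.23 in place of 0.04 in the remodeling Ets2 comparison and -0.31 in place of 0.01 in tumor minus remodeling between Ets2-deficient arrays. With that shift Vegfa passed 2-fold in the second of these, at -1.20.

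The Ets2 difference was also compared between tissues, as the tumor difference minus the remodeling difference. This was 2.76 log2 for Adm, 1.13 for Flt1 and 0.87 for Vegfa, against 0.36 for Vegfb, 0.02 for Nrp2 and -0.17 for Nrp1. Of 7473 genes bright on at least 1 array 8.5% reached 1 log2 or more and 2.94% reached -1 or less. Values at least as high as that of Adm were found in 0.977% of these genes, as that of Flt1 in 7.0% and as that of Vegfa in 10.1%. The Adm value and its share are not exact, since the Ets2-deficient remodeling value was at background, and with 32 added to all unlogged values it was 1.47. Adm was also bright on the Ets2-expressing remodeling array alone, and a high value there raises this difference, so nothing is read from its share. These are differences of differences among 4 single arrays and carry no error. By label the Ets2-expressing array has 1 copy of Ets2 in tumor and is wild type in remodeling. Tissue and Ets2 copy number cannot be told apart in these values.

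**Figure D3:**
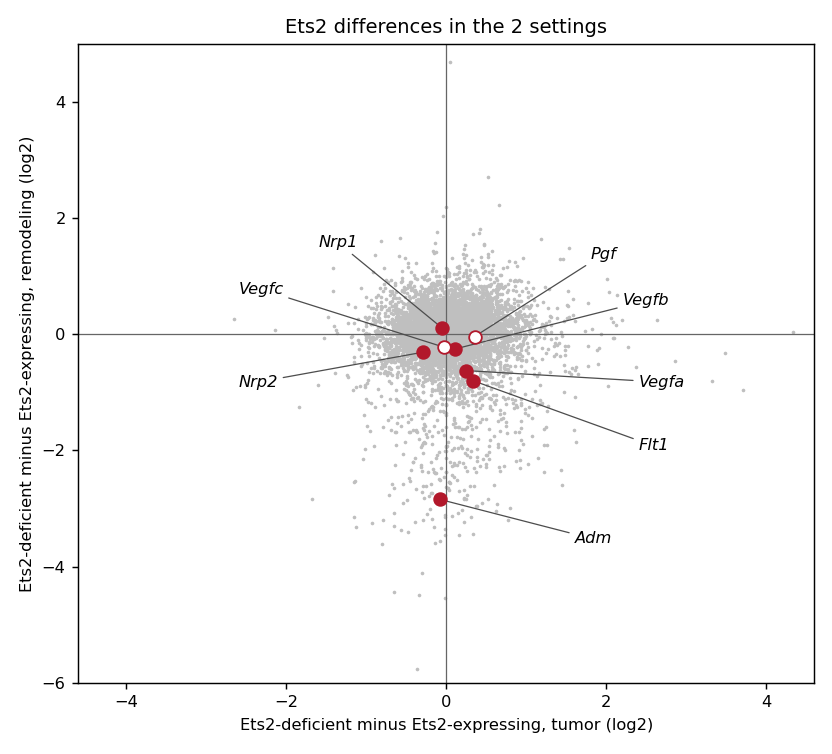
Ets2-deficient minus Ets2-expressing differences (log2) in tumor macrophages (horizontal axis) and in remodeling macrophages (vertical axis). Grey points are the 7473 genes bright on at least 1 array, red points the 8 genes, open for Vegfc and Pgf, which were bright on none. Adm lies at -0.08 and -2.84, and Flt1 and Vegfa lie right of 0 and below 0.

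The other ligands and receptors of these pathways were examined as a list of 9 genes, 7 of them on the array. In the Ets2 comparison in remodeling macrophages 2 of the 3 that were bright, Vegfd and Ramp2, were lower by 2-fold on the Ets2-deficient array and none was higher, beside 5.17% of all bright genes lower. Both counted as bright only through the Ets2-expressing array, where they were high, so nothing is read from that count. Vegfd, a further ligand of Flt4, gave 6.13 and 5.78 log2 in tumor macrophages (Ets2-deficient and Ets2-expressing), against 5.86 and 8.47 in remodeling macrophages (Ets2-deficient and Ets2-expressing). It was above the median on the Ets2-expressing remodeling array alone, and its remodeling Ets2 difference was -2.61, with -2.34 and -1.88 in its other probe sets. Between Ets2-expressing arrays its tumor minus remodeling difference was -2.69.

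Ramp2, the partner that turns Calcrl into an adrenomedullin receptor, gave 5.38 and 5.69 log2 in tumor macrophages (Ets2-deficient and Ets2-expressing), against 4.59 and 6.87 in remodeling macrophages (Ets2-deficient and Ets2-expressing). Like Adm, it was above the median on the Ets2-expressing remodeling array alone, and its Ets2 difference there was -2.28. Calcrl itself was bright on all 4 arrays in its brighter probe set, at 9.78 and 10.04 in tumor macrophages (Ets2-deficient and Ets2-expressing) and 10.58 and 10.32 in remodeling macrophages (Ets2-deficient and Ets2-expressing), with no difference of 2-fold. The other Calcrl probe set lay between 3.77 and 4.05, below the median of every array. Ramp3, the other partner for adrenomedullin, was below the median of every array. Ramp1, which makes Calcrl a receptor for a related peptide, was higher in tumor than in remodeling macrophages by 1.71 between Ets2-deficient arrays, which was called, and by 0.96 between Ets2-expressing arrays.

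The main endothelial VEGF receptors were too dim to count. Kdr lay between 4.83 and 5.26 and Flt4 between 4.26 and 4.94, both under each array's median. Over the whole list the median difference in the remodeling Ets2 comparison was -0.44, beside 0.04 for all genes. In tumor minus remodeling between Ets2-expressing arrays 2 of 4 bright list members were lower by 2-fold (Vegfd and Ramp2) and none was higher. Over all bright genes 5.2% were lower and 6.18% higher. Both list members again counted as bright only through the Ets2-expressing remodeling array, where they were high, so nothing is read from that count. In the Ets2 comparison in tumor none was called, beside 2.99% of all bright genes either way.

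Semaphorins and plexins, which share the neuropilins, were mostly dim. Of 9 measured class 3 semaphorins and plexins 8 were under the array median throughout, while Plxnd1, the receptor of Sema3e, was bright and differed by between -0.44 and 0.16 in the 4 comparisons. In the angiopoietin and Tie list only Tek, the angiopoietin receptor gene, was bright among 5 genes. Tek gave 6.58 and 6.69 log2 in tumor macrophages (Ets2-deficient and Ets2-expressing), against 5.41 and 8.17 in remodeling macrophages (Ets2-deficient and Ets2-expressing), a remodeling Ets2 difference of -2.76. Its tumor minus remodeling differences were 1.17 between Ets2-deficient and -1.48 between Ets2-expressing arrays, all 3 past 2-fold.

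**Figure D4:**
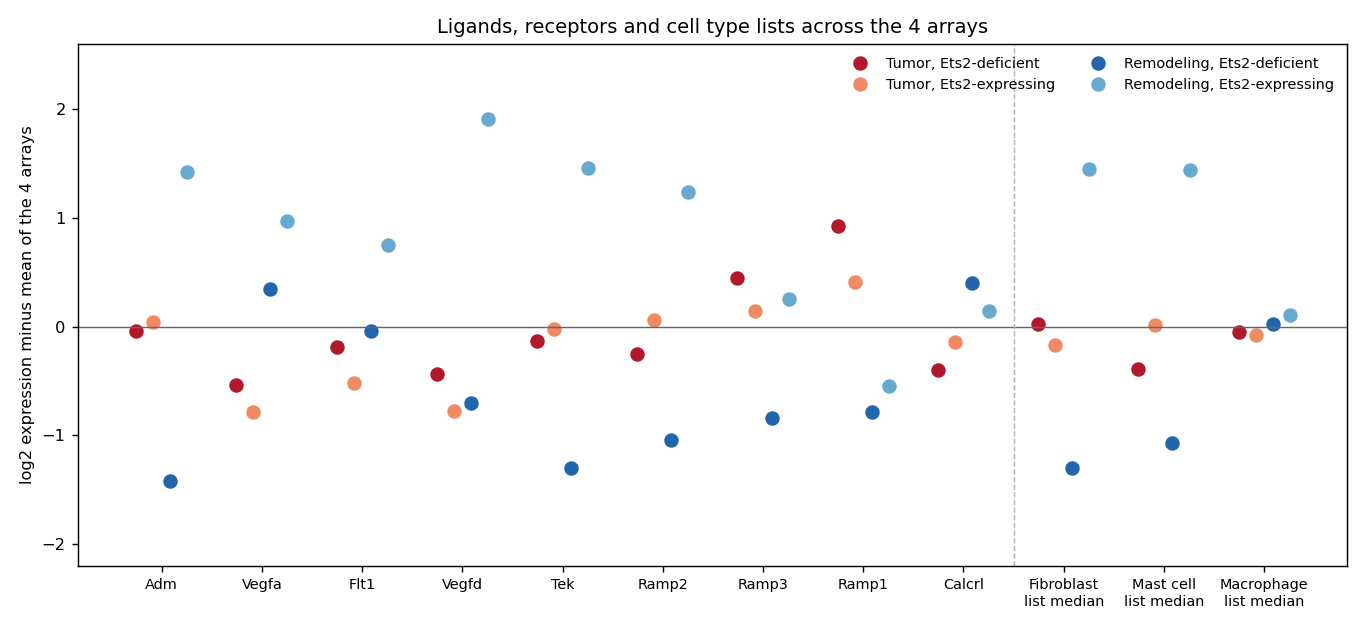
Log2 expression minus the mean of the 4 arrays (vertical axis) for members, pathway genes and the medians of 3 cell type lists (horizontal axis), 1 point per array. Adm, Vegfd, Tek and Ramp2 are highest on the Ets2-expressing remodeling array, as are the fibroblast and mast cell list medians (9.55 and 7.64 log2 there), while the macrophage list median lies near 0 on all 4.

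The genes most like each member were found by the distance between values over the 4 arrays, after the mean of each gene was subtracted, among 7473 genes. For Adm they were Tek (distance 0.17 log2), Fstl1 (0.22), a secreted glycoprotein gene, and the serine protease gene Htra1 (0.23). For Vegfa they were Gem (0.13), a small GTPase gene, Tesc (0.17) and the monocyte-attracting chemokine gene Ccl2 (0.18). For Flt1 they were the hyaluronan receptor gene Lyve1 (0.07), the cytoskeletal linker gene Plec (0.08) and Il1rn (0.08), which encodes the interleukin-1 receptor antagonist. With 4 arrays many genes share a pattern, and these names are a description.

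Markers of other cells moved between the same arrays. In the remodeling Ets2 comparison 13 of 15 fibroblast and matrix genes were lower by 2-fold on the Ets2-deficient array and none was higher. Of all bright genes 5.17% were lower and 1.31% higher. The fibroblast and matrix genes had a summed linear signal of 6356 against 23563 on the Ets2-expressing array, and 11442 and 11340 on the tumor arrays (Ets2-deficient and Ets2-expressing). Of 8 mast cell genes 5 were lower by 2-fold, with sums of 520 against 2006, and 700 and 817 on the tumor arrays (Ets2-deficient and Ets2-expressing). Fbln1 and Fbln2 among the fibroblast genes, and Kit, Fcer1a and Ms4a2 among the mast cell genes, were under the median on all 4 arrays. Col5a1, Loxl1, Pcolce2, Islr, Mcpt4 and Tpsb2 counted as bright in the remodeling Ets2 comparison only through the Ets2-expressing array, where they were high. They could count only as lower, so nothing is read from their place in these counts. In tumor minus remodeling between Ets2-expressing arrays 10 of the 15 fibroblast and 5 of the 8 mast cell genes were lower by 2-fold and none was higher, beside 5.2% of all bright genes lower. Between Ets2-deficient arrays 7 and 1 of them were higher and none was lower, beside 7.61% of all bright genes higher. Pcolce2 and Tpsb2 between Ets2-expressing arrays, and Col5a1, Loxl1 and Islr between Ets2-deficient arrays, were bright only through the array where they were high. Their place in these counts is not read either. In the remodeling Ets2 comparison, and in tumor minus remodeling between Ets2-expressing arrays, Adm, Vegfd, Ramp2, Tek, Vegfa and Flt1 were lower, as these lists were. Between Ets2-deficient arrays the lists were higher in tumor macrophages, as were Adm (1.38, too dim to count) and Tek (1.17), whereas Vegfa (-0.88) and Flt1 (-0.15) were lower. The part of such cells in the differences of Vegfa and Flt1 was not tested.

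Endothelial cells express several of these genes, and most of their markers were low. Of 17 endothelial genes 12 stayed under the array median on all 4 arrays, among them Pecam1, Cdh5, Kdr and Erg. Tek, Vwf, Plvap, Eng and Ramp2 reached the median on at least 1 array. The 17 genes summed to 833 and 790 on the tumor arrays (Ets2-deficient and Ets2-expressing) against 638 and 976 on the remodeling arrays (Ets2-deficient and Ets2-expressing). In the remodeling Ets2 comparison 2 of the 17 were lower by 2-fold, Tek and Ramp2, and none was higher. Plvap alone was higher by 2-fold in the tumor Ets2 comparison (1.25), with none lower. Plvap (1.06) and Tek (1.17) were higher in tumor minus remodeling between Ets2-deficient arrays, with none lower. Between Ets2-expressing arrays Tek and Ramp2 were lower and none was higher. Of 11 mammary epithelial genes 10 were higher by 2-fold in tumor macrophages between Ets2-expressing arrays, beside 6.18% of all bright genes. Between Ets2-deficient arrays all 11 were, beside 7.61%. All but Krt18, Krt19 and Csn3 were bright on the tumor arrays alone, where they were high, so nothing is read from their place in these counts. The 11 genes summed to 19330 and 10529 on the tumor arrays (Ets2-deficient and Ets2-expressing) against 436 and 817 on the remodeling arrays (Ets2-deficient and Ets2-expressing). The part of epithelial RNA in the lower tumor values of Vegfa and Nrp2 was not tested. In the remodeling Ets2 comparison the median difference was -0.05 for 8 pericyte and smooth muscle genes, -0.65 for 7 neutrophil genes, 0.19 for 6 adipocyte genes and 0.17 for 6 dendritic cell genes. In tumor minus remodeling between Ets2-expressing arrays these medians were 0.18, -0.55, -0.15 and 0.71 in that order. Of the neutrophil genes 3 were lower and 1 was higher by 2-fold there, with sums of 6495 on the tumor array and 13569 on the remodeling array.

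Since low oxygen induces Vegfa and Adm, other genes induced by low oxygen were set beside them. Between Ets2-expressing arrays 15 of 22 measured hypoxia-inducible genes lay above 0 in tumor minus remodeling, with a median of 0.23 beside 0.08 for all genes, whereas Vegfa and Adm lay at -1.76 and -1.38. None of the 20 bright ones was higher by 2-fold, and 1 was lower, P4ha1 (-1.05), a subunit of the collagen prolyl hydroxylase. Between Ets2-deficient arrays 15 of 22 again lay above 0, with a median of 0.44 beside 0.01, and 4 were higher by 2-fold: the phosphofructokinase gene Pfkl (1.78), Ndrg1 (1.43), the lactate dehydrogenase gene Ldha (1.18) and the stress gene Ddit4 (1.003). These were 4 of 20 bright list genes, beside 7.61% of all bright genes higher by 2-fold in that comparison. Adm lay at 1.38 there, too dim to count and against background, and Vegfa at -0.88. All 11 epithelial markers were higher between the same arrays, with a median of 4.77, and their part in the hypoxia-inducible differences was not tested.

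Egln3, an oxygen-sensing prolyl hydroxylase that hypoxia itself induces, was higher in tumor macrophages with either Ets2 label. It gave 7.80 and 7.55 log2 in tumor macrophages (Ets2-deficient and Ets2-expressing), against 5.08 and 5.63 in remodeling macrophages (Ets2-deficient and Ets2-expressing), differences of 2.72 between Ets2-deficient and 1.92 between Ets2-expressing arrays. Egln3 lay below the array median on both remodeling arrays. Egln3 and Vegfa ran in opposite directions between tissues on the same arrays. Epithelial markers were also higher in tumor macrophages there, with medians of 4.77 between Ets2-deficient and 2.89 between Ets2-expressing arrays. Their part in the Egln3 differences was not tested. Hif1a, the oxygen-regulated transcription factor, was bright on all 4 arrays and differed by -0.12 between Ets2-deficient and -0.57 between Ets2-expressing arrays, and Epas1, its relative, was below the median of every array. The median Ets2 difference of the hypoxia-inducible genes was 0.12 in tumor and -0.20 in remodeling macrophages. In those comparisons none of them, and no oxygen-sensing gene, passed 2-fold on the probe set that stands for the gene.

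**Figure D5:**
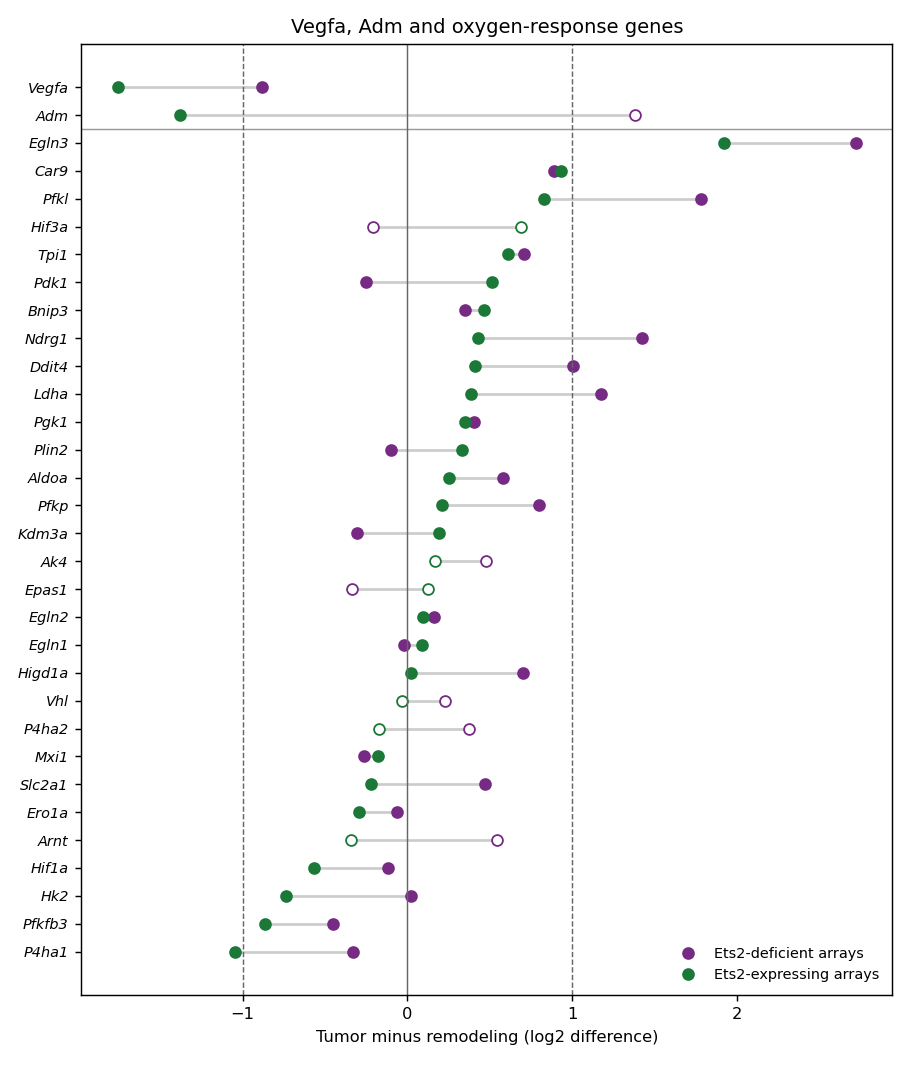
Tumor minus remodeling log2 differences (horizontal axis) between Ets2-deficient arrays (purple) and between Ets2-expressing arrays (green), for Vegfa and Adm above the line and for genes of oxygen sensing and hypoxia below it. Open points were too dim to count, and dashed lines mark 2-fold. Vegfa lies at -0.88 and -1.76, Egln3 at 2.72 and 1.92.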

How the data were processed

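RNA from 4 sorted macrophage samples, 1 per group, was amplified from about 10 ng and labelled with biotin, per the labels' protocols. The authors deposited log2 expression values for 22690 probe sets. GCOS and RMA are the tools named, per the submitters' processing notes. Their versions, roles and the arrays normalized together are not given in the sources used here. The values were used without rescaling. Of the probe sets, 20380 named 1 gene, 691 several and 1555 none, beside 64 controls. Symbols were checked through Entrez identifiers against RefSeq names (GRCm38.p6), which matched 20351 and changed 0. Each gene was represented by its brightest probe set on average.

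The members and gene lists were chosen with earlier results of these data known. The text names all 8 members, up to 4 genes of a pathway list past 2-fold per comparison, Kdr, Flt4, Calcrl, Ramp2, Hif1a, Epas1 and Ets2, and the 3 genes most like each member that spanned 1 log2. Cell type markers are named as examples. Ramp3, Plxnd1, Egln3 and the dim markers were named outside that rule where a result turned on them, after their values were seen.

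Calls need 2-fold and a brighter value at or above the array median (percentile 50). The number of arrays limits the precision, and the depth of an array has no count. Alternatives were median centring, quantile normalization, centring on 18 hybridization controls, no brightness limit or the 75th percentile, 1.5-fold, the mean or the median of probe sets, and 32 added to unlogged values. Promoter sequences came from RefSeq, which matched all 8 members. Work was done in Python 3.11.15 with pandas 2.3.3 and numpy 2.4.6, and the calling step was tested on simulated data.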

Additional observations from a re-analysis of the deposited data

Results flagged for a closer look

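The Flt1 difference between Ets2 labels ran in opposite ways in the 2 tissues. Ets2-deficient minus Ets2-expressing gave 0.33 in tumor and -0.80 in remodeling glands, so the tumor difference was 1.13 log2 above the remodeling one. With the mean of all 3 Flt1 probe sets the tumor difference was -0.02 and the gap 0.50. Each difference rests on 1 array a side, and the difference between them was not tested.

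The Adm difference between tissues ran in opposite ways by Ets2 label. Tumor minus remodeling was 1.38 between Ets2-deficient arrays and -1.38 between Ets2-expressing arrays, which differ by 2.76 log2. The first compares values of 5.16 (tumor) and 3.78 (remodeling), both below their array medians and the remodeling one at background, so that difference and the gap are not exact. With 32 added to all unlogged values the Ets2-deficient difference was 0.57 and the gap 1.47. The difference was not tested.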

How the results depend on the processing

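No paired analysis was possible because each group had 1 array, and for the same reason no array could be left out within a group. Of 72 recomputed counts of members past 2-fold, 64 stayed within 1.5 times the reported count. Most of those 64 were counts of 0 that stayed at 0, so they say little about the called members. In the remodeling Ets2 comparison the reported count of 1 lower member became 0 with the 75th percentile limit, which Adm misses, and 3 at 1.5-fold (Vegfa, Flt1 and Adm). In tumor minus remodeling between Ets2-expressing arrays the reported 3 lower members became 1 with the 75th percentile limit (Vegfa) and 1 with the mean over all probe sets (Adm). Between Ets2-deficient arrays the reported 0 lower members became 1 (Vegfa) after median centring, 1 (Vegfa) after centring on the hybridization controls and 2 (Vegfa and Nrp2) at 1.5-fold, and the reported 0 higher members became 1 (Adm) with no brightness limit. No called difference changed sign in any alternative run. With 32 added to the unlogged values, which shrinks differences near background, Adm differed by -1.51 in the remodeling Ets2 comparison and by -0.90 in tumor minus remodeling between Ets2-expressing arrays, below 2-fold. Of 240 recomputed single values 229 moved by less than the pooled spread between probe sets, and 11, all for Vegfa, Flt1 or Adm, moved by more.

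Over all genes, the counts past 2-fold ranged over the alternatives, which include the 1.5-fold threshold, from 49 to 670 higher and 13 to 433 lower (Ets2, tumor; reported 161 and 55), 21 to 463 higher and 130 to 690 lower (Ets2, remodeling; reported 93 and 367), 154 to 1145 higher and 56 to 559 lower (tissue, Ets2-deficient; reported 548 and 116), and 110 to 1223 higher and 169 to 942 lower (tissue, Ets2-expressing; reported 448 and 377). Low signal limits Vegfc, Pgf and Adm.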

Other observations

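Hif1a has 4 probe sets, and on the Ets2-deficient remodeling array all 4 lay below the Ets2-expressing one, by log2 differences of -0.15, -0.31, -0.72 and -1.32, where the last was bright on the Ets2-expressing remodeling array alone. In the Ets2 comparison in tumor the same 4 gave 0.30, 0.00, 0.03 and 0.34. P4ha1, whose enzyme matures collagen and which hypoxia induces, gave remodeling Ets2 differences of -0.66 and -0.76 in its 2 probe sets, and tumor Ets2 differences of 0.06 and 1.10. Between Ets2-expressing arrays its tumor minus remodeling differences were -1.05 and -1.86, beside -1.76 for Vegfa. Between Ets2-deficient arrays they were -0.33 and -0.01, beside -0.88 for Vegfa. Fibroblast and matrix genes were also lower in tumor between the Ets2-expressing arrays, and their part in the P4ha1 differences was not tested. Egln3 was higher in tumor macrophages in both of its probe sets, by 2.72 and 3.63 between Ets2-deficient arrays and by 1.92 and 1.72 between Ets2-expressing arrays. Its second probe set also differed by 1.005 in the Ets2 comparison in tumor. That probe set lay at 3.97 on the Ets2-deficient remodeling array, below the 25th percentile of 4.29 taken as background, so the 3.63 is not exact.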
